A study of Rattus norvegicus with 2 samples.

Results

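Chondroitin sulfate proteoglycans, tenascins and their matrix partners were examined in rat oligodendrocyte precursor cells (OPCs), the dividing glia that form myelinating oligodendrocytes. The set was 10 genes chosen by symbol from the 17202 in the deposited table: the lecticans Bcan, Ncan, Vcan and Acan, the membrane proteoglycans Cspg4 and Cspg5, the tenascins Tnr and Tnc, the link protein Hapln1 and the matrilin Matn4. All 10 were found. The study compared 2 wild-type OPC cultures from rat brain, grown in OGM medium. One culture had received amyloid-beta (Aβ), the peptide that aggregates in Alzheimer's disease, at 1 µM for 2 days, and the other DMSO, the solvent, with no dose or separate time given for it. Each condition gave 1 library. The labels speak of adult OPCs in one place and of developing rats in another, and both titles carry an unexplained P1, so the age of the cells is uncertain. They do not say how many animals went into a culture.

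Lecticans are large secreted proteins that carry chondroitin sulfate chains and bind hyaluronan at their N-terminal end, where link proteins such as Hapln1 hold the complex together. At their C-terminal end they bind tenascins, so that hyaluronan, lecticans and tenascins form the loose matrix of the brain. OPCs both make and meet this matrix. Cspg4, better known as NG2, is a classical surface marker of OPCs, and chondroitin sulfate chains are known to hold back process outgrowth of oligodendrocyte lineage cells in scars and lesions.

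Bcan and Ncan were the 2 genes of the set with the highest levels, and their counting intervals lay above 1 in the comparison of Aβ with DMSO. The 250 bases before their RefSeq transcription starts are shown with those of Acan, the lectican at the lowest level. Sequences come from RefSeq on build GRCr8, while the deposited table was made on Rnor_6.0, and each runs 5′ to 3′ on the strand of its gene. Capitals mark the GC box letters GGGCGG on either strand. The Bcan window is chr2:175765315-175765564 on the minus strand, the Ncan window chr16:19335657-19335906 on the plus strand and the Acan window chr1:142390701-142390950 on the plus strand.

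Bcan: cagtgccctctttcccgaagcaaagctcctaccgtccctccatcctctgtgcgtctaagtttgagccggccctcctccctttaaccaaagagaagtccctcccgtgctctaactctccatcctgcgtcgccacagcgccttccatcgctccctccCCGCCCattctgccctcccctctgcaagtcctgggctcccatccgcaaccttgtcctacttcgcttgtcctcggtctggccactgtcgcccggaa

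Ncan: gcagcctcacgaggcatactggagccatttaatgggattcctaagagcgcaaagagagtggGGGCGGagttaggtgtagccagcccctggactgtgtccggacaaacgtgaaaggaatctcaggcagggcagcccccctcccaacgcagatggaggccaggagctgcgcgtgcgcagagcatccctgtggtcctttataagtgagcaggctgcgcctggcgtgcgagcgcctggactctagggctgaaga

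Acan: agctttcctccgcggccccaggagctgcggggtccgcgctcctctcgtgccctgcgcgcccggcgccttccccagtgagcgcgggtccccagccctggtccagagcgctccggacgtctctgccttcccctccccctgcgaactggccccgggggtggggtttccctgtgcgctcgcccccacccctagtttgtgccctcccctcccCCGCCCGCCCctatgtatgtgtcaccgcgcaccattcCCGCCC

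GGGCGG was found once in the Bcan window, once in the Ncan window and 3 times in the Acan window, where 2 of the matches overlap. Of 33469 RefSeq windows of the same length, 30.5% held it. The letters TATAA, searched on both strands, were found in the Ncan window alone of these 3, as 2 overlapping matches, and in 24.0% of all windows. No match overlapped a match of the other motif. GC content was 61.2% for Bcan, 60.8% for Ncan and 73.6% for Acan. These are descriptions of letters, and no binding was measured.

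Estimated counts summed to 15117102 with Aβ and 15019416 with DMSO. With 1 library in each group no test was possible. CPM are counts scaled to library size, ratios are CPM with Aβ over CPM with DMSO, and their 95% intervals cover counting error only. Every value below therefore compares 2 libraries, not 2 conditions. All 10 genes reached 1 CPM in at least 1 library, as did 13505 genes in all, called measured here. In these bulk libraries a change in the share of a cell type and a change in RNA per cell cannot be told apart.

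The culture held markers of several cell types. All 6 OPC markers were measured, with summed levels of 1618 TPM with Aβ and 1560 TPM with DMSO (TPM are levels per transcript length, set by the authors to 1 common total). All 8 astrocyte markers were also measured, with sums of 1800 TPM and 1711 TPM, led by Gfap at 838 TPM and 793 TPM. All 9 neuron markers were measured, with sums of 623 TPM and 595 TPM, of which Tubb3 held the most. Of 8 oligodendrocyte markers 6 were measured, with sums of 585 TPM and 545 TPM, mostly Cnp. Microglial markers summed to 13.5 TPM and 17.8 TPM with 4 of 8 measured, markers of fibroblasts and pericytes to 19.9 TPM and 18.3 TPM with 4 of 8 measured, mostly Cspg4 itself, and endothelial markers to 1.04 TPM and 1.21 TPM with 2 measured of 4 in the table. Lum and Rgs5, of fibroblasts and pericytes, had no count with Aβ, and no other marker in the table was at 0 in either library. The ratio of some cell type markers was above 1, as it was for 9 of the 10 genes of the set and 49.7% of all measured genes. Of all measured genes, 6.49% had an interval wholly above 1 and 6.88% one wholly below. Among genes at 100 CPM or more the shares were 12.1% and 13.0%. The interval of the ratio lay above 1 for 2 of the 6 OPC markers and below 1 for none, with the orphan receptor gene Gpr17 at 1.17 (1.10 to 1.25) and Pdgfra, the receptor for PDGF-A, at 1.08 (1.05 to 1.10). It lay above 1 for 3 astrocyte markers, Gfap at 1.03 (1.01 to 1.05), Slc1a3 at 1.03 (1.002 to 1.05) and S100b at 1.06 (1.01 to 1.10), and below 1 for Aldh1l1 at 0.883 (0.809 to 0.963). In other lists the interval lay above 1 for single markers. They were Cnp of oligodendrocytes at 1.05 (1.02 to 1.08), Map2 of neurons at 1.04 (1.01 to 1.07) and Col1a2 of fibroblasts and pericytes at 1.58 (1.19 to 2.11). In the list of Col1a2, 2 of the 4 measured genes lay above 1, namely Col1a2 and the OPC marker Cspg4, and 2 below. The latter were Col1a1 at 0.916 (0.566 to 1.48) and Pdgfrb at 0.908 (0.682 to 1.21). Pdgfra and Col1a2 had fractional estimated counts, for Col1a2 129.3 with Aβ and 81.22 with DMSO. Median log2 ratios were 0.021 for OPC, -0.0046 for astrocyte, 0.038 for neuron and 0.089 for oligodendrocyte markers. They were -0.22 for microglial, -0.19 for endothelial and -0.011 for fibroblast and pericyte markers. All 4 measured microglial markers lay below 1, on few counts and none with an interval wholly below 1. Astrocytes are known to make Ncan, Bcan, Tnc and Cspg5 as well, and the part of these cells, or of any shift in markers, in the values below was not tested.

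The proteoglycan genes spanned a wide range of levels, from 217 TPM for Bcan to 0.24 TPM for Acan in the DMSO library, and all 10 held the same place in the order of levels in both libraries. The order by TPM was Bcan, Ncan, Cspg5, Vcan, Tnc, Cspg4, Tnr, Matn4, Hapln1 and Acan. Neighbours in that order had counting intervals that did not overlap in either library, except Hapln1 and Acan, whose intervals overlapped in both. Bcan, Ncan and Cspg5 were among the most abundant measured genes by TPM, at percentiles (Aβ, then DMSO) of 95.7 and 95.1 for Bcan, 94.6 and 93.8 for Ncan, and 93.0 and 92.6 for Cspg5. Together the 10 genes summed to 741 TPM with Aβ and 669 TPM with DMSO, and Bcan and Ncan held 60.4% and 58.3% of these sums. The CPM ratio of the summed set was 1.09 (1.07 to 1.11). TPM sums, including those of the markers above, hold a general rise with Aβ. The median log2 TPM ratio of all measured genes was itself 0.037.

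**Figure D1:**
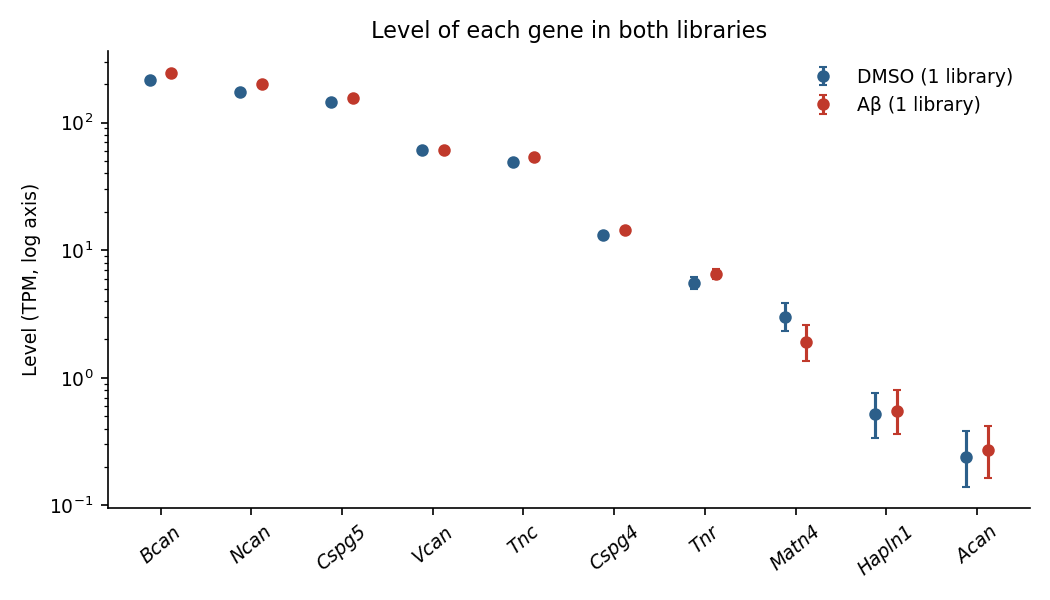
Level of each gene in TPM (log axis) in the DMSO library and the Aβ library, with 95% Poisson intervals of the count as bars, hidden by the points where counts are high. Levels fall from Bcan, at 217 TPM and 246 TPM, to Acan, at 0.24 TPM and 0.27 TPM, in the same order in both libraries.

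In the comparison with Aβ, 9 of the 10 genes had a ratio above 1, beside 49.7% of all measured genes, and Matn4 alone lay below. The counting interval lay wholly above 1 for Bcan, Ncan and Tnc, 3 of 10, beside 6.49% of all measured genes, and wholly below 1 for Matn4, beside 6.88%. The set was chosen with earlier results of these data known, so these shares describe it and test nothing. Intervals are narrower for abundant genes. Of the 2601 genes at 100 CPM or more, which include Bcan, Ncan, Cspg5, Vcan and Tnc, 12.1% had an interval above 1 and 13.0% one below. The differences were small. No gene of the set was called higher or lower by a rule of at least 1 in log2 ratio with an interval leaving out 1, which called 0.267% of measured genes higher and 0.407% lower. The median log2 ratio of the 10 genes was 0.080, against -0.00078 for all measured genes.

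**Figure D2:**
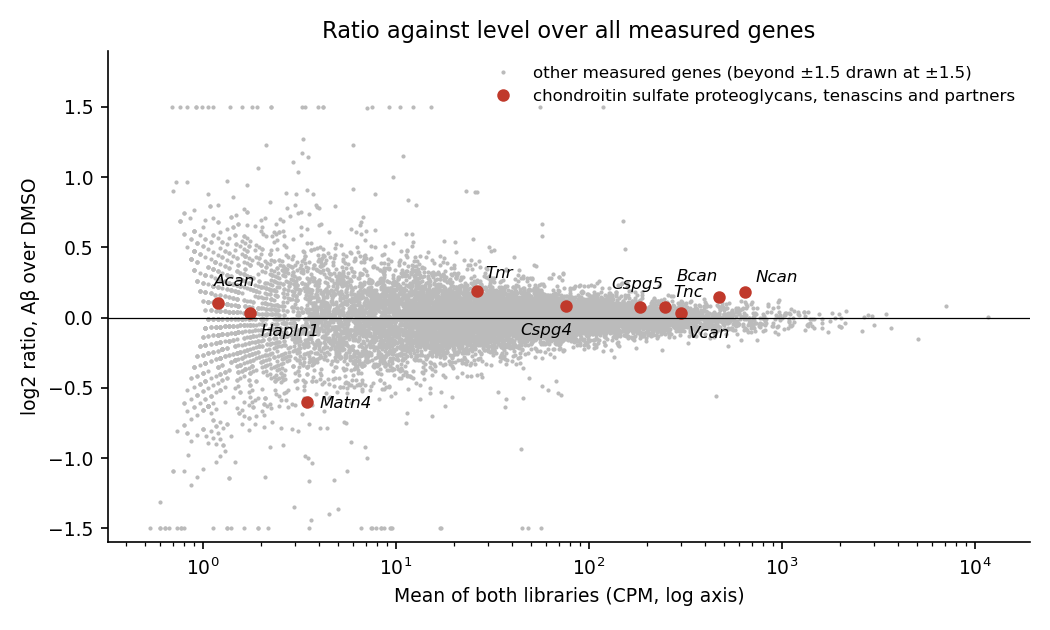
log2 ratio of Aβ over DMSO, with 0.5 CPM added to each level, against mean level in CPM (log axis) for every measured gene (grey) and the 10 genes of the set (red, named). The spread narrows with level, and Ncan and Bcan lie near the upper edge of genes as abundant as they are, while Matn4 lies low among genes of few counts.

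Among lecticans, Ncan (neurocan), a proteoglycan of the nervous system that binds neural adhesion molecules, had 10423 counts with Aβ and 9127 with DMSO. Its level was 201 TPM against 173 TPM. The ratio was 1.13 (interval 1.10 to 1.17), and 0.884% of the 2601 genes at 100 CPM or more had a log2 ratio as high. Ncan was thus higher in the Aβ library by more than counting error, but without a replicate the spread between cultures is unknown.

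Bcan (brevican), the lectican with the shortest core protein, made in both a secreted and a membrane-anchored form, had 7488 estimated counts with Aβ and 6715 with DMSO. Its level was 246 TPM against 217 TPM, the highest of the set in each library. The ratio was 1.11 (1.07 to 1.14), and 2.15% of genes at 100 CPM or more were as high. Bcan was the only gene of the set with fractional counts, which arise when reads are divided between entries, and the other 9 had whole counts.

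Vcan (versican), made in several splice forms that differ in their chondroitin sulfate regions, had 4593 counts with Aβ and 4448 with DMSO. By counts its ratio was 1.02 (0.983 to 1.07), and 29.2% of genes at 100 CPM or more had a log2 ratio as high. By TPM Vcan lay the other way, at 60.8 TPM against 61.4 TPM, a ratio of 0.990. By FPKM, another level per length that is scaled to library size, its ratio was 0.963. The transcript length implied by its counts and FPKM was 7.12 kb with Aβ and 6.68 kb with DMSO. This length is computed from those 2 values, so it restates the gap between the scales and does not explain it. That length ratio of 1.07 was reached by 1.04% of the 9846 measured genes with at least 5 FPKM in both libraries, where the median was 1.00. In the other 9 genes of the set the implied lengths of the libraries had ratios from 0.979 to 1.01. RefSeq lists 4 curated Vcan transcripts, the most of any gene in the set. Counts of single transcripts were not analysed here, and the source of the length difference was not tested.

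Acan (aggrecan), the main proteoglycan of cartilage and of perineuronal nets around neurons, was close to the limit of measurement. It had 19 counts with Aβ and 17 with DMSO, or 0.27 TPM and 0.24 TPM. The ratio of 1.11 had an interval from 0.546 to 2.27, and a difference of that size was not detectable at this depth.

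Lecticans could also be set against each other without any library scaling, as ratios of counts within a library. Of 8 pairs within the set, chosen after the values were seen, 4 had intervals that left out 1. Most pairs share Ncan or Vcan, so they are not separate results, and the share over pairs of other genes was not computed. Vcan was also the gene of the set whose implied length differed between the libraries. The ratio of Ncan counts to Vcan counts was 2.27 with Aβ and 2.05 with DMSO, a difference of 1.11-fold (1.05 to 1.16). The ratio of Bcan to Vcan was 1.63 and 1.51, or 1.08-fold (1.02 to 1.14). The ratio of Ncan to Bcan was 1.39 and 1.36, or 1.02-fold (0.980 to 1.07). Ncan against Cspg5 differed by 1.08-fold (1.01 to 1.14) and Matn4 against Vcan by 0.605-fold (0.396 to 0.915), while intervals for Ncan against Cspg4, Tnr against Tnc and Cspg5 against Vcan held 1. Summed over the 4 lecticans, counts were 22523 and 20307, a ratio of 1.10 (1.08 to 1.12). Without Bcan and Ncan, the remaining 8 genes of the set summed to 13017 and 12367 counts, a ratio of 1.04 (1.02 to 1.07). That sum is mostly Vcan, Tnc and Cspg5. Of these 8 genes, Tnc alone had an interval of its own wholly above 1, and Matn4 had one wholly below. Like sums over other genes were not computed.

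**Figure D3:**
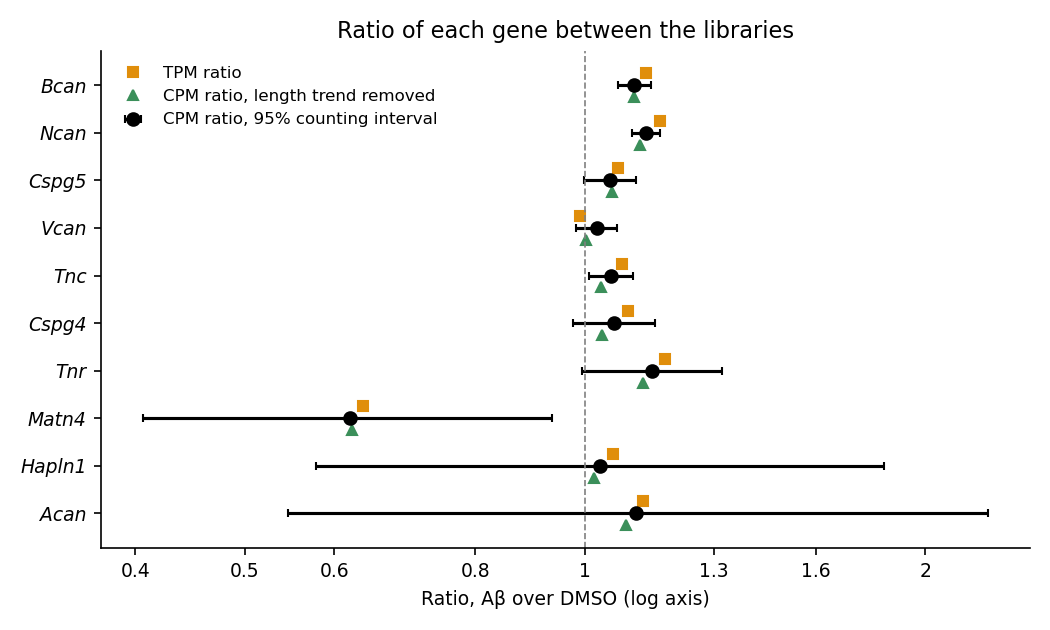
Ratio of Aβ over DMSO (log axis) for each gene from CPM with its 95% counting interval (black), from TPM (orange squares) and from CPM after removal of the trend with transcript length (green triangles). Every gene but Vcan and Matn4 lies to the right of 1 on each scale. Vcan changes side with TPM, and Matn4 alone lies well to the left, at 0.620.

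Of the membrane proteoglycans, Cspg5 (neuroglycan C), a brain protein with an EGF-like domain, had 2859 counts with Aβ and 2696 with DMSO, or 156 TPM and 146 TPM. Its ratio was 1.05 (0.998 to 1.11), and 13.1% of genes at 100 CPM or more had a log2 ratio as high. Cspg4 (NG2), which binds PDGF and collagens at the OPC surface, had 1184 counts and 1107 counts, or 14.4 TPM and 13.2 TPM. It stood at a ratio of 1.06 (0.977 to 1.15). Both intervals held 1. By TPM the NG2 transcript lay far lower than that of Cspg5 in both libraries, at percentiles of 41.4 with Aβ and 39.8 with DMSO among measured genes.

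Among tenascins, Tnc (tenascin-C), a hexameric matrix protein of developing and injured brain, had 3871 counts with Aβ and 3642 with DMSO, or 53.4 TPM and 49.6 TPM. The ratio was 1.05 (1.01 to 1.10), and 12.1% of genes at 100 CPM or more had a log2 ratio as high. Tnr (tenascin-R), a trimer made chiefly by oligodendrocyte lineage cells and some neurons, had 424 counts and 367 counts, or 6.51 TPM and 5.53 TPM. Its ratio of 1.15 (0.994 to 1.32) was the highest of the set, yet it rested on far fewer counts than that of Ncan, and its interval held 1. Tnr relative to Tnc differed by 1.09-fold (0.936 to 1.26).

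Matn4 (matrilin-4), a matrix adaptor with von Willebrand factor A domains that is found among OPC transcripts, was lower in the Aβ library. It had 40 counts with Aβ and 64 with DMSO, or 1.91 TPM and 3.0 TPM, a ratio of 0.620 (0.407 to 0.935). Of the 3183 measured genes below 10 CPM in both libraries, 4.52% had a log2 ratio as low and 4.84% an interval wholly below 1. Hapln1, which locks lecticans onto hyaluronan, had 27 counts and 26 counts, or 0.55 TPM and 0.52 TPM. Its ratio was 1.03 (0.579 to 1.84), so these counts leave room for a sizeable difference either way.

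Long transcripts had slightly higher ratios across the table, and 8 of the 10 genes were longer than the median measured gene. A smooth trend over the 11726 measured genes with whole counts ran from a log2 ratio of -0.015 at 1 kb to 0.036 at 8 kb. Implied lengths in the set ran from 1.72 kb for Cspg5 to 7.75 kb for Cspg4, against that median of 2.31 kb. Implied length is the length that FPKM divides by and not the full transcript length, since it fell to 0.031 kb for Rpl38. With the trend removed, ratios were 1.12 for Ncan, 1.11 for Bcan, 1.06 for Cspg5, 1.12 for Tnr, 1.04 for Cspg4, 1.03 for Tnc and 1.00 for Vcan. The interval of Tnc then held 1 (0.986 to 1.08) and that of Cspg5 lay above it (1.003 to 1.11). The median log2 ratio of the set became 0.063.

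**Figure D4:**
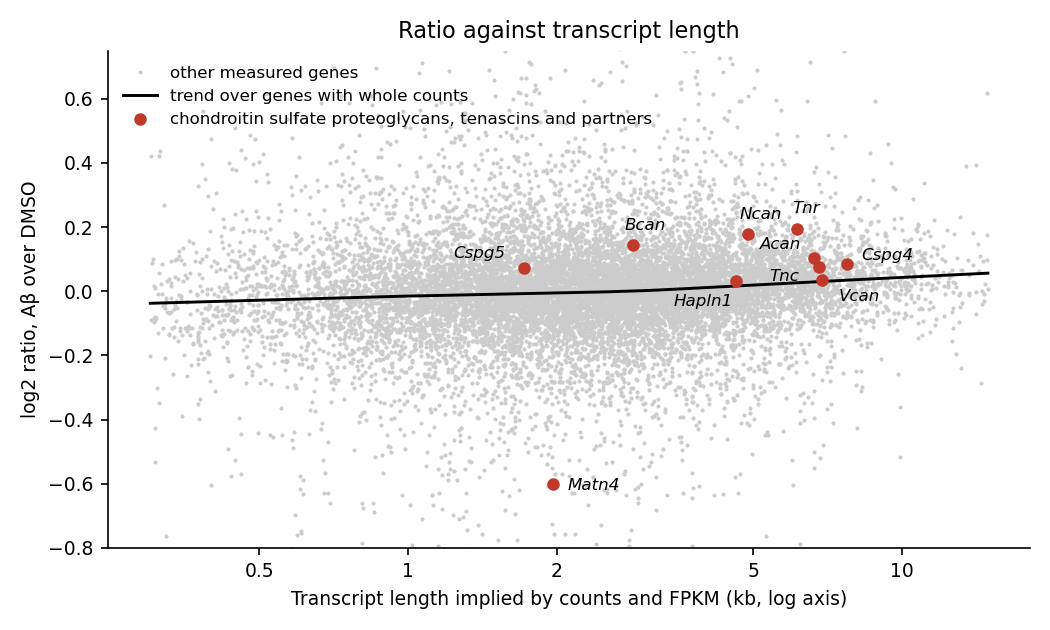
log2 ratio of Aβ over DMSO against the transcript length implied by counts and FPKM (kb, log axis), with genes of the set in red and the trend over genes with whole counts as a line. Axes are cropped, which leaves out a few grey points. The line climbs by about 0.05 from 1 kb to 8 kb, and Ncan, Bcan and Tnr stand above it while Vcan and Hapln1 lie close to it.

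Each lectican gene of the rat genome lies directly beside a link protein gene, with no protein-coding gene between them in RefSeq. The pairs are Bcan with Hapln2, Ncan with Hapln4, Vcan with Hapln1 and Acan with Hapln3. Link protein transcripts were scarce. Hapln4, the link protein of brain that partners brevican at synapses, was highest, with 140 counts and 115 counts, or 3.92 TPM and 3.16 TPM, and a ratio of 1.21 (0.937 to 1.56). Hapln3 had 37 counts and 39 counts, or 2.13 TPM and 2.55 TPM. Hapln2, known from nodes of Ranvier of myelinated axons, had 2 counts and 1 count. Per length, Ncan stood 51.3 times above Hapln4 with Aβ and 54.7 times with DMSO, and Vcan 111 times and 118 times above Hapln1. In the Acan pair the order was reversed, with Hapln3 above Acan in both libraries.

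**Figure D5:**
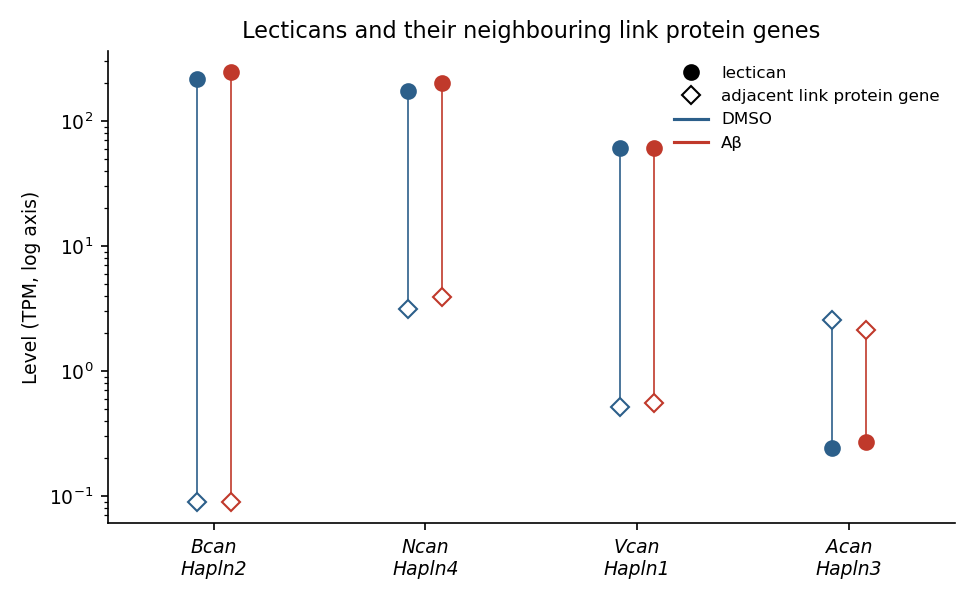
Levels in TPM (log axis) of the 4 lecticans (circles) and the link protein gene beside each in the genome (diamonds), with DMSO in blue and Aβ in red. Bcan, Ncan and Vcan stand far above their neighbours, while Acan, at 0.24 TPM and 0.27 TPM, lies below Hapln3.

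Other proteins of this matrix were described from lists of pathway genes, none of which held a called gene. Ptprz1, a receptor phosphatase whose secreted form is the proteoglycan phosphacan, exceeded every gene of the set, with 673 TPM and 650 TPM and a ratio of 1.01 (1.00 to 1.03). Of 7 measured core proteins of other proteoglycans, 5 lay above 1 and 2 below, with an interval above 1 for Ptprz1 alone, by a narrow margin. Cd44, a hyaluronan receptor, stood at 0.948 (0.894 to 1.00) and Bgn (biglycan) at 1.09 (0.976 to 1.21). Of 3 measured link proteins and matrilins 2 lay above 1, and Matn2, a relative of Matn4, stood at 1.06 (0.783 to 1.44). Median log2 ratios of these 2 lists were 0.046 and 0.078.

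Enzymes that build chondroitin sulfate chains were divided. Of 24 measured, 10 lay above 1 and 14 below, with intervals above 1 for 3 and below for 2, and their median log2 ratio was -0.013. Xylt1, the xylosyltransferase that starts the chain on the core protein, stood at 1.16 (1.09 to 1.24) from 2065 counts and 1768 counts. Chpf, a chondroitin polymerizing factor, stood at 1.14 (1.04 to 1.26), B3gat3, which completes the linker, at 1.08 (0.973 to 1.20), and Chst11, a 4-O-sulfotransferase named because its interval left out 1, at 1.08 (1.01 to 1.15). Csgalnact1, which adds the first N-acetylgalactosamine, stood at 0.763 (0.596 to 0.974) from 120 counts and 156 counts, and Papss1, which makes the sulfate donor, at 0.936 (0.895 to 0.979).

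Hyaluronan genes lay below 1 in 7 of 11 measured cases, with intervals below 1 for 2 and a median of -0.054. Those 2 were Has2, a hyaluronan synthase, at 0.771 (0.606 to 0.980) from 126 counts and 162 counts, and Ugdh, which makes the sugar precursor for hyaluronan and chondroitin alike, at 0.935 (0.884 to 0.988). The hyaluronan-binding genes Hmmr and Cemip stood at 0.963 (0.894 to 1.04) and 1.13 (0.928 to 1.38), and the hyaluronidase Hyal2 at 0.925 (0.834 to 1.03).

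Of 14 measured receptors, 5 lay above 1 and 9 below, with intervals above 1 for 3, below for 1 and a median of -0.0089. Ptprs, the receptor phosphatase that binds chondroitin sulfate, stood at 1.04 (1.01 to 1.07), Nfasc at 1.08 (1.02 to 1.15) and Egfr at 1.08 (1.03 to 1.12), and the integrin subunit Itgav at 0.950 (0.915 to 0.987), the last 2 named for their intervals. The tenascin-R receptor Cntn1 stood at 0.989 (0.967 to 1.01), Itgb1 at 0.995 (0.963 to 1.03) and Itga8, a tenascin-binding integrin subunit, at 0.805 (0.639 to 1.01). Matrix proteases and their inhibitors had 4 of 13 above 1 and a median of -0.066. Mmp14, a membrane metalloproteinase, stood at 1.06 (1.005 to 1.12) and the inhibitors Timp1, Timp2 and Timp4 at 0.879 (0.800 to 0.967), 1.02 (0.946 to 1.09) and 0.893 (0.717 to 1.11). Across these lists, intervals that left out 1 went both ways, with ratios between 0.763 for Csgalnact1 and 1.16 for Xylt1.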

How the data were processed

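The authors deposited 1 table of gene values for 2 libraries, built per the labels' protocols as mRNA libraries with a BGI kit. Bowtie2 and build Rnor_6.0 are named in the submitters' processing notes, while for quantifier, annotation and strand the sources used here give nothing. The authors' values are estimated counts, TPM, FPKM and a signal column, the read count divided by 1 factor per library, which was not used. Estimated counts were rounded. CPM used TMM library sizes (edgeR 4.0.16, R 4.3.3). Intervals of CPM ratios are exact 95% Clopper-Pearson limits given the sum of both counts (scipy 1.17.1). For pairs of genes the intervals are exact conditional 95% intervals of the odds ratio of their counts, also from scipy. DESeq2 1.42.0 gave alternative size factors. The pseudocount of log2 ratios was 0.5 CPM. Implied length is counts over FPKM and the library's total count, and its trend is a lowess fit (statsmodels 0.14.6). The scripts were tested on simulated data.

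No test was run, since each group had 1 library. The genes of the set and all lists were chosen with earlier results of these data known. Named genes are the whole set, the neighbouring link proteins and, from each pathway list, the 3 highest by TPM and the 2 of at least 10 CPM with the largest log2 ratio in size. Alternatives were library scaling, TPM, FPKM, filters, pseudocounts, whole counts alone and removal of the length trend. Matching was by symbol, or by RefSeq gene ID where the symbol had changed.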

Additional observations from a re-analysis of the deposited data

How the results depend on the processing

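Filters, pseudocounts and whole counts alone cannot move the ratio of a single gene. Under the other 5 alternatives, 49 of 50 ratios stayed within the gene's own counting interval, and the exception was Vcan with FPKM, at 0.963. That count is a weak check, since library scaling moved ratios very little. The wide intervals of Acan, Hapln1 and Matn4 could also hardly be left. The median log2 ratio ranged from 0.063 with the length trend removed or with FPKM to 0.10 with TPM, where the median of all measured genes was itself 0.037. With TPM, 6 intervals lay wholly above 1, against 3 with CPM, and Cspg5, Cspg4 and Tnr were added. With DESeq2 size factors there were 4, with Cspg5 added. With the length trend removed there were 3, with Cspg5 in place of Tnc. Bcan and Ncan were among them under each alternative that kept both, and whole counts alone leave out Bcan. The share of all measured genes with an interval above 1, 6.49% with CPM, is not given for these alternatives. With TPM the median gene was raised as well, so 6 against 3 does not concern the set alone. With a filter of 10 CPM, 0 intervals lay below 1, because Matn4, Hapln1 and Acan then fail the filter. The count of genes with a ratio above 1 was 8 with TPM and with FPKM, where Vcan lay below 1. No alternative gave a called gene in the set. FPKM cannot change the order of levels within a library, since it is proportional to TPM. Depth limits Matn4, Hapln1 and Acan, at 64 counts or fewer in each library, and with 1 library per condition no value has a check against replicates.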
